A study of Mus musculus with 10 samples.

Results

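Cycling T cells are T lymphocytes that are copying their DNA or dividing. In mouse colorectal carcinoma they were chosen by a rule on 6 proliferation genes: a T cell counted as cycling when at least 3 of Mki67, Top2a, Birc5, Pclaf, Rrm2 and Stmn1 had at least 1 UMI (unique molecular identifier, 1 counted transcript). The rule found 62 cycling cells among 20939 T cells, which in turn were those of 22590 cell barcodes with at least 300 detected genes, at most 10% mitochondrial UMIs and at least 1 UMI of Cd3e or Cd3g. The members were therefore selected on measured values. The 6 genes are given below as a description, with no test, and the genes of the cell cycle that move with them are described in the same way.

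The T cells came from tumours that the labels call colorectal carcinoma and were profiled cell by cell in droplets with a 5′ RNA kit, with a matched library of T cell receptor (TCR) chains for each of the 5 RNA libraries. In 2 RNA libraries the mice had received a combination of the plant Stellera chamaejasme (S. chamaejasme) and anti-PD-1, an antibody against an inhibitory receptor of T cells. In 1 library they had received S. chamaejasme alone, and 2 libraries were untreated. No library with anti-PD-1 alone was analysed here. The labels give neither the strain, the age, the tumour line and the doses, nor whether libraries came from separate animals, so p values measure only the spread between these libraries, which may be technical. Depth per RNA library was 27759543 and 26015879 UMIs for the combination, 19999977 for S. chamaejasme and 8763821 and 15428707 for untreated mice.

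A cell that commits to division passes from G1 into S phase, in which MCM helicases open the DNA and ribonucleotide reductase supplies its building blocks, and then through G2 into mitosis, driven by cyclin B and mitotic kinases. Resting T cells are held in quiescence by factors such as Klf2, Btg1, Tob1 and the inhibitor p27 (Cdkn1b), and antigen with costimulation releases them into cycle. In tumours, regulatory T cells (Treg, marked by Foxp3), helper T cells (Cd4) and cytotoxic T cells (Cd8a, Cd8b1) can all divide.

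The 6 genes cover different steps. Mki67 encodes the protein Ki-67 that coats mitotic chromosomes, Top2a the topoisomerase that untangles DNA, Birc5 survivin of the chromosomal passenger complex, Pclaf a partner of the replication clamp PCNA, Rrm2 the small subunit of ribonucleotide reductase and Stmn1 stathmin, which destabilises microtubules. Their promoters are shown because the rule rests on these genes. RefSeq promoters (GRCm38.p6) were at hand for 5 of the 6 genes, Stmn1 being named only. Each run is the 150 bases before the gene's RefSeq start, read in the direction of the gene, from chr7:135716380-135716529 (minus strand) for Mki67, chr11:99024190-99024339 (minus strand) for Top2a, chr11:117849087-117849236 (plus strand) for Birc5, chr9:65890173-65890322 (plus strand) for Pclaf and chr12:24708104-24708253 (plus strand) for Rrm2. Against the first GENCODE start of each gene, the Pclaf window runs 86 bases into the transcript and the Rrm2 window 13, while those of Mki67 and Birc5 end 18 and 14 bases short of it. Capitals mark the letters TTTGAA (the cell cycle homology region, CHR) and CCAAT on either strand.
Mki67: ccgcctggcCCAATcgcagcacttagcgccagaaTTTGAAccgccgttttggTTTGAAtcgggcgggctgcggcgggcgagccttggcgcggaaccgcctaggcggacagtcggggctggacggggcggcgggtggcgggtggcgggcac
Top2a: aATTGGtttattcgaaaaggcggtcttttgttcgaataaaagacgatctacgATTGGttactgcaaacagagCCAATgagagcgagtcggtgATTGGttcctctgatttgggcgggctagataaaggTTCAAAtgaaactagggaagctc
Birc5: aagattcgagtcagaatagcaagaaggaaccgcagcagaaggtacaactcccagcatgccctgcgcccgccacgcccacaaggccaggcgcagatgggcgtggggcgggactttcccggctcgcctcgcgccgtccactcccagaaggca
Pclaf: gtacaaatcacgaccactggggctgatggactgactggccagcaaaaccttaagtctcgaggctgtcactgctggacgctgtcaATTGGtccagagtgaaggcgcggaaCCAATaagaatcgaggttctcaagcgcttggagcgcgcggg
Rrm2: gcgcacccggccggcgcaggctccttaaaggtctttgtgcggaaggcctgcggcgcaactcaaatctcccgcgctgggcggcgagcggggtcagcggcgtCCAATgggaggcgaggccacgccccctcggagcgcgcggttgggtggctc
The letters TTTGAA stood in 2 of the 5 windows, Mki67 and Top2a, and in 9.24% of all 27025 RefSeq promoter windows of this length. CCAAT stood in 4 of the 5, all but Birc5, and in 25.3% of all windows. The E2F letters TTTNNCGC stood in none of the 5 and in 2.79% of all windows. Both Pclaf matches lie downstream of the first GENCODE start. The 3 motifs do not overlap in these windows. Of the genes in the G2M phase list, 46 of 52 had a window and 32.6% of these held TTTGAA, against 12.5% of the 32 windows for the 42 genes in the S phase list. CCAAT stood in 76.1% of the G2M windows and 65.6% of the S windows, and the E2F letters in 8.7% and 25% of them. A match is a description of the letters and not a measured site.

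Among the 62 cells the 6 genes were found in unequal numbers. Stmn1 had a UMI in 60 cells and Pclaf in 52, followed by Birc5 in 43, Top2a in 41, Rrm2 in 40 and Mki67 in 38. Most Birc5 and Pclaf UMIs lay in these cells: the 62 cells held 87.2% of all Birc5 UMIs of the T cells and 86.9% of all Pclaf UMIs. The same cells held 42.9% of the Mki67 UMIs, 36.9% of the Rrm2 UMIs, 21.3% of the Stmn1 UMIs and 9.96% of the Top2a UMIs. Most UMIs of Mki67, Rrm2, Stmn1 and Top2a thus lay in T cells outside the rule. Top2a had a UMI in 6.17% of the other T cells and Stmn1 in 7.83%, against 0.101% for Birc5 and 0.201% for Pclaf. Summed over the cycling cells of each library, Pclaf stood at 357 and 414 CPM (UMI counts scaled to a total of 1000000 per sum) in the combination libraries, 380 CPM in the S. chamaejasme library and 389 and 398 CPM in the untreated libraries. Birc5 stood at 222 and 249 CPM in the combination libraries, 155 CPM in the S. chamaejasme library and 100 and 192 CPM in the untreated ones. Mki67 stood at 169 and 136 CPM with the combination, 56.3 CPM with S. chamaejasme alone and 213 and 172 CPM in untreated mice.

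The cells just inside and just outside the threshold differed in more than the rule genes. All 6 genes were found in 19 cells, 5 genes in 7, 4 genes in 17 and 3 genes in 19, while 216 T cells had exactly 2. The median UMI count was 9433 in cells with 3 of the genes and 6294 in cells with 2. S phase list genes other than those of the rule took 24.3 UMIs per 10000 in cells with 3 rule genes and 11.9 in cells with 2, and G2M list genes took 29.3 and 17.1 per 10000. Birc5 had a UMI in 6 of the 19 cells with 3 genes and in 6 of the 216 with 2, whereas Top2a had one in 11 of 19 and in 155 of 216.

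Few T cells cycled in any library. The share was 0.392% in combination replicate 1 (20 of 5104, 95% Wilson interval 0.254 to 0.605%) and 0.353% in combination replicate 2 (17 of 4820, 0.22 to 0.564%). In the S. chamaejasme library it was 0.114% (6 of 5268, 0.0522 to 0.248%). In the untreated libraries it was 0.271% (6 of 2215, 0.124 to 0.59%) and 0.368% (13 of 3532, 0.215 to 0.629%). The combination libraries averaged 0.372% ± 0.0277 and the untreated libraries 0.319% ± 0.0687 (SD, n = 2 each), and one untreated library lay between the 2 combination libraries. The difference of 0.0528 percentage points was within the spread of the untreated libraries (exact permutation test, two-sided, p = 0.667, where 2 libraries against 2 cannot go below 0.333). The S. chamaejasme library, which has no replicate, had the lowest share. These intervals cover counting error only.

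Depth moved with these shares. Cycling cells held a median of 13770.5 and 10578 UMIs in the combination libraries, 8304 in the S. chamaejasme library and 10437.5 and 9233 in the untreated libraries, against 5014.5, 4934, 3484, 3616 and 3981 UMIs in the other T cells of the same libraries. With every cell thinned to 2000 UMIs, 26 cells still met the rule and the order of the groups turned round: 0.151% and 0.134% in the combination libraries (7 of 4649 and 6 of 4462), 0.0665% in the S. chamaejasme library (3 of 4510) and 0.156% and 0.222% in the untreated libraries (3 of 1928 and 7 of 3159). Thinning left out, for holding fewer UMIs, 206 and 175 combination T cells, 638 after S. chamaejasme and 161 and 176 untreated ones, 0 of them cycling, and cells without a Cd3 UMI after thinning. Among T cells with at least 7799.75 UMIs, the 25th percentile of the cycling cells, 3.22% and 2.34% cycled in the combination libraries, 2.42% in the S. chamaejasme library and 8.2% and 5.8% in the untreated libraries. Such deep cells made up 11% and 10.6% of the T cells in the combination libraries, 2.35% in the S. chamaejasme library and 2.75% and 3.91% in the untreated libraries. The part of depth in the shares was not tested beyond these values.

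**Figure D1:**
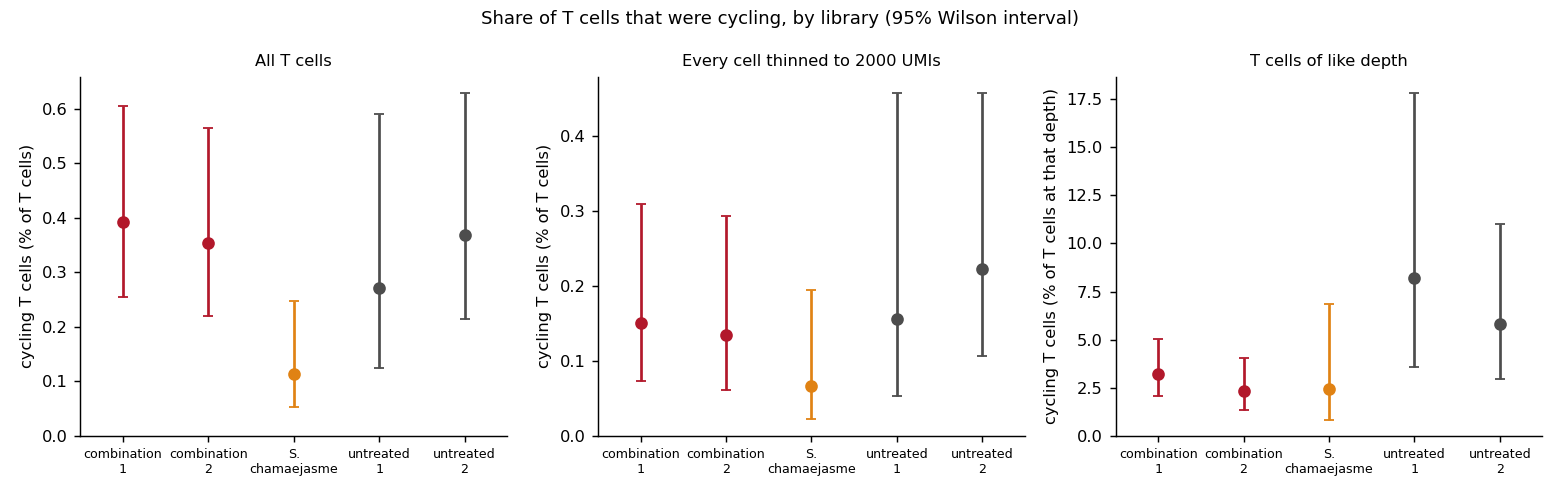
Cycling T cells as a percentage of T cells in each library (points, with 95% Wilson intervals as bars), for all T cells, for cells thinned to 2000 UMIs, and for T cells with at least 7799.75 UMIs. The combination libraries lie at 0.392% and 0.353% with all T cells, and below both untreated libraries after thinning (0.151% and 0.134% against 0.156% and 0.222%).

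Every lineage contributed cycling cells, and CD4 conventional T cells (Cd4 with no Cd8a, Cd8b1 or Foxp3 UMI) were the most numerous with 24 of the 62. Treg (Foxp3 with no Cd8 UMI) made up 10, CD8 T cells (Cd8a or Cd8b1 with no Cd4 or Foxp3 UMI) another 10, cells with a Cd8 UMI beside Cd4 or Foxp3 9, and cells with no coreceptor UMI 9. Within each class, 10 of 1346 Treg cycled (0.743%, 95% Wilson interval 0.404 to 1.36%), 24 of 6173 CD4 conventional cells (0.389%, 0.261 to 0.578%) and 10 of 3927 CD8 cells (0.255%, 0.138 to 0.468%). The Treg share was 0.499% and 1.28% in the combination libraries, 0.317% in the S. chamaejasme library and 1.3% and 0.617% in the untreated ones. The CD4 conventional share was 0.495% and 0.357% with the combination, 0.164% with S. chamaejasme alone and 0.547% and 0.44% in untreated mice, below the Treg share in 5 of 5 libraries. In combination replicate 1 that gap was 0.0037 points. The mean gap was 0.401 ± 0.407 points (SD, n = 5 libraries, exact sign-flip permutation test, two-sided, p = 0.0625, the smallest that 5 pairs allow). CD8 cells cycled at 0.363% and 0.112% in the combination libraries, 0.19% in the S. chamaejasme library and 0.394% and 0.309% in the untreated ones, below CD4 conventional cells in 4 of 5 libraries, with a mean gap of -0.127 ± 0.0977 points (exact permutation test, p = 0.125). After thinning, which leaves 1 cycling Treg, 2 CD4 conventional and 4 CD8 cells, the CD8 gap turned to 0.0877 points and the Treg gap was positive in 1 library only.

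Detection of coreceptors rises with depth. The classes of all cycling cells were therefore set beside those of other T cells with at least 7799.75 UMIs. The cut was not applied to the cycling cells, which went down to 3360 UMIs, so depth was only partly matched. CD4 conventional cells were 38.7% of cycling cells and 36.8% of these deep other cells, Treg 16.1% and 11.1%, CD8 cells 16.1% and 27.5%, cells with Cd8 beside Cd4 or Foxp3 14.5% and 8.23%, and cells with no coreceptor UMI 14.5% and 16.4%. No test was made of these pooled shares, since cells of 1 library are not replicates. Of the 9 cells with Cd8 beside Cd4 or Foxp3, 8 had a single Cd8b1 UMI and 1 had 2 TCR beta chains. Among cycling cells with Cd4 or Foxp3, 20.9% held a Cd8 UMI (9 of 43, median 11563 UMIs per cell), against 14.7% of the deep other cells with Cd4 or Foxp3 (111 of 756, median 9422.5 UMIs) and 5.27% of all other ones (416 of 7901, median 4564 UMIs). Conversely 1 of the 9 cycling cells with at least 5 Cd8 UMIs had a Cd4 UMI (11.1%), against 9.54% of the deep other cells of that kind. The 95% Wilson interval of the cycling share, 11.4 to 35.2%, holds the share in deep other cells, while a single Cd8 UMI was found in 18.6% of the cycling cells (9.74 to 32.6%) and 5.69% of the deep other ones. The class is one of detection and is not read as a cell type. All 9 came from treated mice: 5 and 3 from the combination libraries and 1 from the S. chamaejasme library. These libraries held 132, 130 and 97 T cells of the class, and the untreated ones only 24 and 42. With 0 cycling in the untreated libraries, the 95% Wilson upper limits were 13.8% and 8.38%.

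Of the 9 cycling cells with no coreceptor UMI, 6 were in untreated replicate 2, and 7 had both TCR chains in the matched TCR library. The other 2 had no TCR chain and held Trdc, the constant gene of the delta chain of gamma delta T cells. These were the only cycling cells with Trdc, which was found in 1.58% of the other T cells. Markers of other cell types were measured as well. A UMI of the myeloid list was found in 8.06% of cycling cells and 4.3% of deep other T cells, and one of the B cell list in 48.4% and 40.6%. For the epithelial or tumour list the shares were 6.45% and 5.49%, with 4 of its 5 UMIs in cycling cells from Epcam. For the NK cell list they were 9.68% and 8.16%, with 168 of its 179 UMIs in cycling cells from Gzma. Other members of these lists were at 0 in all 62 cells. They include the myeloid genes Lyz2, Csf1r, Cd14, C1qa, C1qb, Adgre1, S100a8 and S100a9, the B cell genes Cd79a and Ms4a1, and Krt8, Krt19 and Cdh1 of epithelium. The B cell list as a whole summed to 59.3 to 217 CPM in cycling cells and 40.9 to 226 CPM in other T cells, 90 of its 116 UMIs in cycling cells being Ighm.

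**Figure D2:**
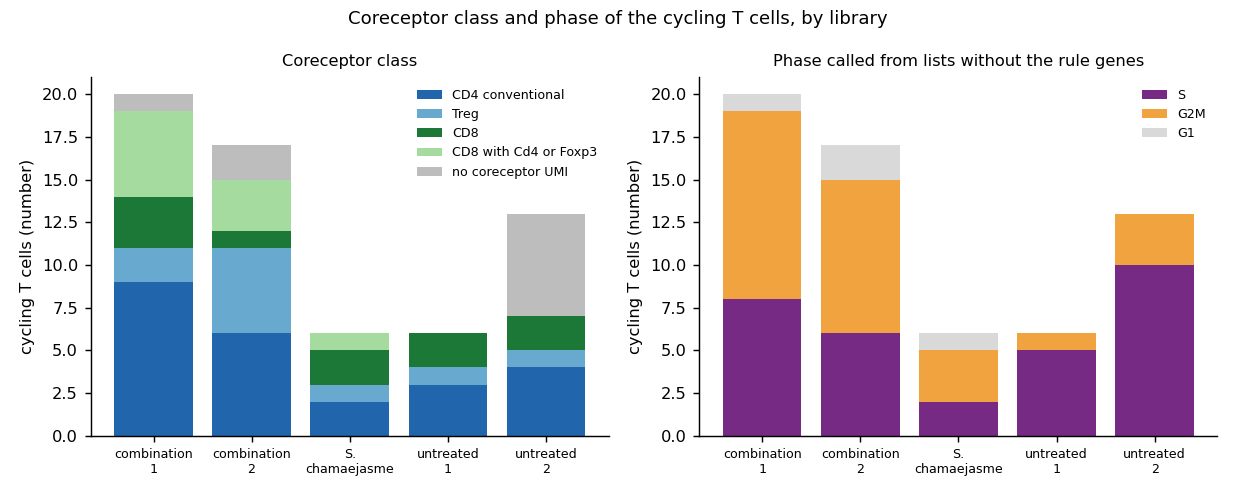
Number of cycling T cells in each library by coreceptor class (left) and by called phase (right). CD4 conventional cells are the largest class in both combination libraries (9 of 20 and 6 of 17), and S phase calls are 8 of 20 and 6 of 17 in the combination libraries against 5 of 6 and 10 of 13 in the untreated ones.

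Phases were called per cell from 41 S phase and 49 G2M phase genes, leaving the rule genes out. Of the 62 cells, 31 were called S, 27 G2M and 4 G1. S phase calls made up 40% of the cycling cells in combination replicate 1 (95% Wilson interval 21.9 to 61.3%), 35.3% in combination replicate 2 (17.3 to 58.7%), 33.3% in the S. chamaejasme library (9.68 to 70%), 83.3% in untreated replicate 1 (43.6 to 97%) and 76.9% in untreated replicate 2 (49.7 to 91.8%). The combination averaged 37.6% ± 3.33 and the untreated group 80.1% ± 4.53 (SD, n = 2 each), a difference of -42.5 points with groups that did not overlap (exact permutation test, two-sided, p = 0.333, the smallest that 2 against 2 allows). The S. chamaejasme library lay on the side of the combination. After thinning to 2000 UMIs the shares were 40% and 23.5% in the combination libraries, 33.3% with S. chamaejasme alone and 66.7% and 46.2% in the untreated libraries, again without overlap. Other T cells were called S at rates of 10.4% and 11.6% in the combination libraries, 10.5% after S. chamaejasme and 14.9% and 12.1% in the untreated libraries, and G2M in 15.6%, 16.2%, 14.7%, 22.6% and 22.3%. In 11 of the 62 cells, G1 calls included, the S and G2M scores lay within 0.1 units of each other.

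The levels behind these calls showed where the groups parted. S list genes took a median of 14.1 and 20.8 UMIs per 10000 in the cycling cells of the combination libraries (range 6.85 to 104 and 4.06 to 71.9), 15.5 in those of the S. chamaejasme library (3.26 to 63.1) and 35.7 and 42.8 in those of the untreated libraries (26.9 to 53.2 and 23.4 to 87.8). Both treated groups thus held cells with an S list level under the lowest untreated cell, 13 of 20 and 9 of 17 in the combination libraries and 4 of 6 in the S. chamaejasme library, while the untreated libraries have 0 by that definition. Their S list level overlapped that of other T cells, which took 7.35 to 8.36 UMIs per 10000 over a whole library. These 26 cells were 9 CD4 conventional, 4 Treg, 5 CD8, 6 with both coreceptors and 2 with none. Of the 26, 18 were called G2M and 19 held Birc5, and their median of 10432 UMIs compares with 11050 in the other cycling cells. The cut was set after the values were seen, and no test was made of it. The G2M list took medians of 56.8 and 41.8 per 10000 in the combination libraries, 73.7 in the S. chamaejasme library and 26.4 and 57.6 in the untreated libraries, with groups that overlapped.

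**Figure D3:**
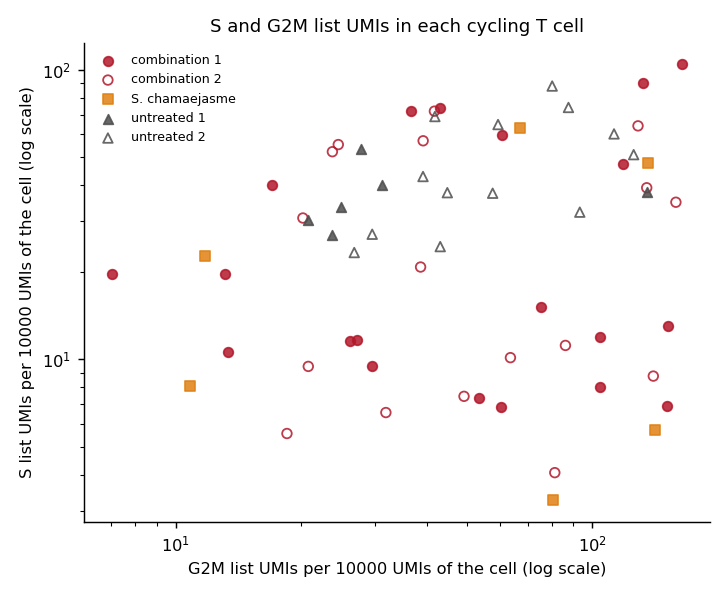
S list UMIs against G2M list UMIs, both per 10000 UMIs of the cell on log axes, in each of the 62 cycling cells, by library. All 19 untreated cells lie at or above 23.4 on the S axis, and 26 of the 43 cells of treated mice lie below.

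The phases differed in which rule genes they held. The phase lists had left these genes out, although the rule had chosen the cells on them. Birc5 stood at 4.3 UMIs per 10000 in G2M cells and 1.16 in S cells, and was found in 26 of 27 G2M cells and 15 of 31 S cells. Mki67 stood at 2.57 per 10000 in G2M cells and 1.36 in S cells. Rrm2 went the other way, with 3.66 per 10000 in S cells and 2.33 in G2M cells, and was found in 24 of 31 S cells and 14 of 27 G2M cells. By lineage, S, G2M and G1 calls numbered 12, 10 and 2 among CD4 conventional cells, 2, 7 and 1 among Treg, 6, 3 and 1 among CD8 cells, 4, 5 and 0 among cells with both coreceptors and 7, 2 and 0 among cells with none. No class reached 10 cycling cells in any library, so neither phases nor genes were compared between lineages.

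The cycling cells were spread over many clones. A TCR beta chain was found in 59 of the 62 cells (95.2%) and in 76.6% of other T cells, and these 59 cells belonged to 59 different clonotypes (cells with the same receptor), with no clonotype holding a second cycling cell. Of the 59, 50 were the sole cell of their clonotype, 7 had a clonotype of 2 cells and 2 a larger one. Expanded clonotypes, of at least 2 cells, took 10.5% and 11.8% of the cycling cells with a clonotype in the combination libraries, 33.3% in the S. chamaejasme library and 16.7% and 18.2% in the untreated libraries, against 6.65%, 7.29%, 22%, 21.3% and 9.42% of the other T cells in the same order. The share was higher in cycling cells in 4 of 5 libraries, by 4.77 ± 6.08 points on average (SD, n = 5, exact sign-flip permutation test, p = 0.25). The 9 expanded cells were 6 CD4 conventional cells, 2 Treg and 1 cell with both coreceptors. By class, expanded clonotypes held 6 of 23 cycling CD4 conventional cells with a clonotype (26.1%) and 11.5% of the other ones, 2 of 10 cycling Treg (20%) and 7.06% of the other ones, and 0 of 10 cycling CD8 cells (95% Wilson interval 0 to 27.8%) and 22.3% of the other ones. Within CD4 conventional cells the gap was positive in 4 of 5 libraries (mean 21.6 ± 23.8 points, exact permutation test, p = 0.125). Each library holds 1 to 3 cycling CD8 cells, and with 0 of them expanded the sign of the CD8 gap is fixed, so no test of it is given.

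Gene expression was compared between cycling and other T cells of the same library, with UMIs summed per library and edgeR's quasi-likelihood test fitted over 10522 genes with the library as a block. At a Benjamini-Hochberg adjusted p under 0.05, 861 genes rose in cycling cells (8.18%) and 1318 fell (12.5%). These counts include the 6 rule genes and the genes of the cell cycle lists, and over the 10299 genes outside them 685 rose and 1314 fell. With DESeq2 777 rose and 604 fell over all 10522 genes, and 604 rose and 603 fell outside the lists. Over all genes, 39.5% of the called ones were higher in edgeR and 56.3% in DESeq2. The median of all genes was -0.22 in log2 here and -0.12 with RLE scaling in place of TMM, with which 49.3% of called genes were higher. Against other T cells with at least 7799.75 UMIs, whose median of all genes was -0.04, 462 rose and 437 fell among 5772 genes, and this setting, chosen after the depths had been seen, is given below beside the lists outside the cell cycle, as the values at like depth. Without combination replicate 1 the calls of both directions numbered 1406 in place of 2179. The sums of cycling cells held 53766 to 289569 UMIs from 6 to 20 cells, and a gene can rest on a few of these cells.

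The cell cycle lists moved with the rule genes, as a choice made on them entails, and are described without a test. The median log2 fold change was 5.09 over 18 mitotic kinases and cyclins, 3.94 over 22 kinetochore genes, 3.92 over 50 G2M genes, 2.42 over 42 S phase genes, 2.26 over 36 MCM and fork genes and 0.93 over 19 genes of nucleotide synthesis. Outside all of these lists, the 10 largest increases included 4 histone genes and genes known from cell division. Cep55, which acts in the final cut between daughter cells, averaged 54 ± 22.4 CPM in cycling cells and 2.29 ± 0.42 CPM in other T cells (SD, n = 5; log2 fold change 4.63 ± 0.41, SE). Asf1b, a histone chaperone of replicating chromatin, had 128 and 141 CPM in the cycling cells of the combination libraries, 70.4 CPM in those of the S. chamaejasme library and 25.1 and 178 CPM in those of the untreated libraries, against 5.35 to 9.41 CPM in other T cells. Every cycling sum lay above every other sum for Asf1b (log2 4.06 ± 0.32, SE). Genes of this kind can follow the rule as the cell cycle lists do, and they too are given without a test. Hist1h2ag, Hist1h2bb, Hist1h2bj and Hist1h2an had log2 fold changes of 3.65 to 5.22. Near-identical copies of histone genes can share reads, so the single members are uncertain. Cenps, of the centromere, the lncRNA Lockd, Tcf19 and Gm4316 completed the 10, at 3.46 to 3.74.

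Genes of quiescence and of naive or memory T cells were lower in cycling cells. In the naive and memory list 13 of 15 genes fell and 0 rose, with a median log2 fold change of -1.88 (12 of 15 fell against deep other cells, median -1.25). Of all genes 12.5% fell, and 437 of 5772 against deep other cells. Il7r, the receptor for the survival cytokine IL-7 (chr15:9505788-9530176, GRCm38), had 147 and 98.8 CPM in the cycling cells of the combination libraries, 127 CPM in those of the S. chamaejasme library and 113 and 130 CPM in those of the untreated libraries. In the other T cells it had 422 and 373 CPM, 444 CPM, and 418 and 331 CPM in the same order, so the groups did not overlap (log2 -1.66 ± 0.19, adjusted p = 3.2e-17). Ccr7, which guides T cells to lymph nodes, and the transcription factor Lef1 fell in 5 of 5 libraries each, with log2 fold changes of -1.81 and -2.03. Tcf7, the partner of Lef1, had a log2 fold change of -0.58 in edgeR (adjusted p = 0.00664), with 1 library going the other way. Its adjusted p was 0.101 without the S. chamaejasme library, 0.0831 without untreated replicate 1, 0.366 at like depth and 0.173 in DESeq2.

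Of the CDK inhibitors and quiescence genes, 11 of 17 fell and 2 rose (median -1.11, and -0.72 against deep other cells with 9 of 15 lower). Over all genes 12.5% fell and 8.18% rose. Klf2, the factor that keeps T cells at rest and in circulation, had 407 and 706 CPM in the cycling cells of the combination libraries, 366 CPM in those of the S. chamaejasme library and 301 and 460 CPM in those of the untreated libraries, against 912 to 2035 CPM in other T cells, without overlap (log2 -1.88 ± 0.14). Btg1, an antiproliferative cofactor, was at 501 to 1091 CPM in cycling cells and 2505 to 2818 CPM in other T cells (log2 -1.89 ± 0.13, adjusted p = 1.96e-44). Its relatives Btg2 and Tob1 had log2 fold changes of -1.65 and -1.79. Cdkn1b, the inhibitor p27, averaged 72.4 ± 31.4 CPM in cycling cells and 176 ± 18.7 CPM in other T cells (SD, n = 5; log2 -1.27 ± 0.22), and its highest cycling sum, 110 CPM, was under its lowest other sum, 149 CPM. Myc, which drives growth on activation, had a log2 fold change of -0.79 (edgeR adjusted p = 0.0037, 0.177 without combination replicate 1, and 0.0922 in DESeq2), and the G1 cyclin gene Ccnd2 one of -0.63 (adjusted p = 0.0159, but 0.233 without combination replicate 1, 0.124 and 0.0601 without untreated replicate 1 or 2, and 0.213 in DESeq2).

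Genes that T cell receptor signals induce within minutes to hours were also lower. In the immediate early list 17 of 19 fell and 0 rose (median -1.21), beside 12.5% of all genes lower and 8.18% higher. Against deep other cells the median was -0.64 and 11 of 18 fell, beside 437 of all 5772 genes. The size of this difference thus moved with the depth of the cells compared. Fos, Jun and Junb, subunits of the transcription factor AP-1, had log2 fold changes of -1.73, -1.69 and -1.29, and Dusp1, a phosphatase of MAP kinases, one of -1.4. Junb was at 1605 to 2941 CPM in cycling cells and 5134 to 7896 CPM in other T cells. Among chaperones 7 of 18 fell and 1 rose, with a median of -0.26, close to that of all genes (5 fell and 1 rose at like depth, median -0.2). The 3 with the smallest p, Dnajb1, Hspa1b and Hspa1a of the heat shock response, had log2 fold changes of -2.01, -1.9 and -1.67. Socs3, a brake on cytokine signals, had 53.2 and 37.6 CPM, 0 CPM, and 100 and 27.4 CPM in cycling cells, against 236 to 347 CPM in other T cells (log2 -2.89 ± 0.24, adjusted p = 3.76e-32).

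Part of the genes of energy supply were higher. In glycolysis 5 of 16 genes rose and 0 fell (median 0.34, and 0.22 with 4 of 15 higher against deep other cells), against 8.18% of all genes. Tpi1, triosephosphate isomerase (chr6:124810586-124814296), had 328 and 268 CPM in the cycling cells of the combination libraries, 535 CPM in those of the S. chamaejasme library and 188 and 172 CPM in those of the untreated libraries, against 72.9 to 99.3 CPM in other T cells. All 5 cycling sums were above all 5 other sums (log2 1.78 ± 0.18, adjusted p = 1.08e-20). Pgk1, Gapdh and Pkm of the same pathway rose by 1.18, 0.86 and 0.82 on the log2 scale. In oxidative phosphorylation 14 of 39 genes rose and 1 fell (median 0.4), beside 8.18% of all genes higher. At like depth 8 of 39 rose (median 0.23), and with RLE scaling 25 of 39. Among those that rose were Ndufa4 and Cox5a, subunits of the respiratory chain, with log2 fold changes of 0.95 and 0.73. In the proteasome 7 of 20 rose and 0 fell, but at like depth 2 of 20 rose, near the share of all genes (462 of 5772). Psma4 of the core particle rose by 1.11. Ran, the GTPase of nuclear transport and spindle assembly, was at 789 to 979 CPM in cycling cells and 338 to 380 CPM in other T cells (log2 1.28 ± 0.14), with its partner Ranbp1 at 1.08. In ribosome biogenesis and Myc targets 4 of 21 rose and 1 fell. At like depth 2 and 2 of 20 did so, both near the shares of all genes (462 and 437 of 5772).

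Of the apoptosis genes 9 of 21 fell and 2 rose, beside 12.5% of all genes lower and 8.18% higher. Against deep other cells 3 of 19 fell and 2 rose, beside 437 and 462 of all 5772 genes. Bcl2, which holds back cell death (chr1:106538178-106714274), had 78.2 and 75.3 CPM in the cycling cells of the combination libraries, 155 CPM in those of the S. chamaejasme library and 0 and 68.6 CPM in those of the untreated libraries, against 258 to 322 CPM in other T cells (log2 -1.99 ± 0.21, adjusted p = 7.37e-19). The cycling sums lay below all other sums. Mcl1 of the same family had a log2 fold change of -1.51 and Bbc3, which encodes the death promoter PUMA, one of -2.17.

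**Figure D4:**
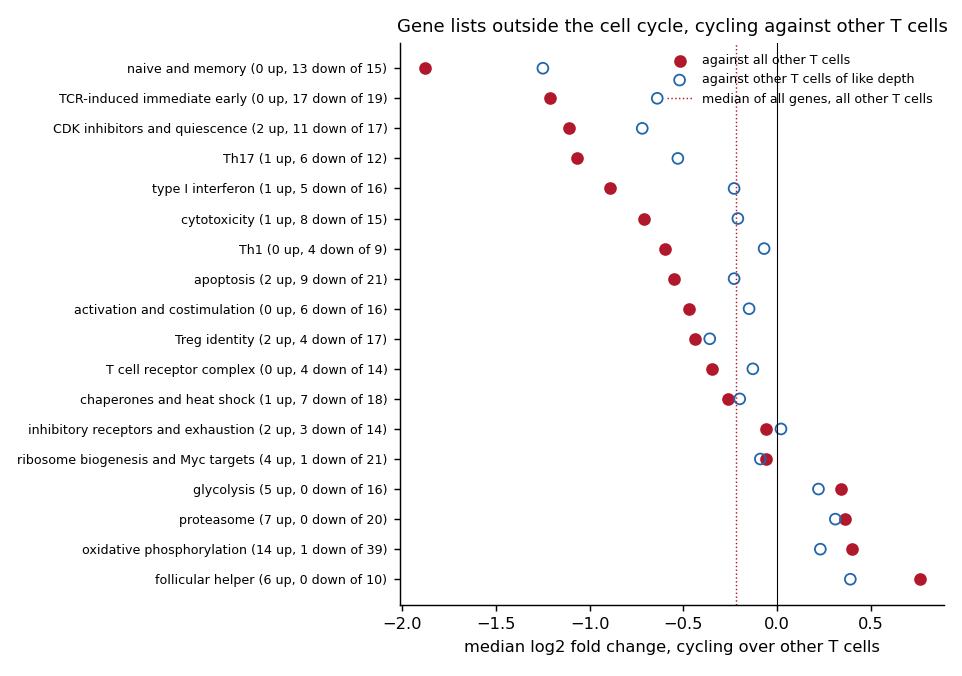
Median log2 fold change of cycling over other T cells for 18 gene lists outside the cell cycle, against all other T cells (filled) and against other T cells with at least 7799.75 UMIs (open), with the number of genes that rose or fell. The naive and memory list lies lowest at -1.88 and -1.25, and the follicular helper list highest at 0.76 and 0.39.

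Genes of T cell function gave a mixed picture. In the follicular helper list 6 of 10 genes rose and 0 fell (median 0.76), but 2 of 9 rose against deep other cells (median 0.39). Of all genes 8.18% rose, and 462 of 5772 against deep other cells. Pdcd1, which encodes PD-1, had 84.5 and 151 CPM in the cycling cells of the combination libraries, 113 CPM in those of the S. chamaejasme library and 25.1 and 110 CPM in those of the untreated libraries, against 65.8 and 70.4 CPM, 50.4 CPM, and 21.5 and 33.1 CPM in the other T cells. It was higher in cycling cells in 5 of 5 libraries, though the sums overlapped (log2 0.96 ± 0.24, adjusted p = 0.000579). Pooled over cells by class, Pdcd1 was at 162 CPM in cycling and 47.2 CPM in other CD4 conventional cells, at 40.2 and 22 CPM in CD8 cells, and at 144 and 207 CPM in Treg. Cxcr5, which guides cells into B cell follicles, had 32 UMIs in 12 cycling cells and was higher in 4 of 5 libraries (log2 2.13 ± 0.4). Il21, the cytokine of follicular helper cells, was higher in 3 of 5 libraries (log2 1.59 ± 0.41, adjusted p = 0.00111 in edgeR, 0.0937 without combination replicate 2, 0.311 against deep other cells and 0.103 in DESeq2), with a UMI in 8 of 24 cycling CD4 conventional cells and 231 of 6149 others. Lag3, another inhibitory receptor, rested on 1 library: it had 78.2 and 334 CPM in the cycling cells of the combination libraries, 14.1 CPM in those of the S. chamaejasme library and 12.5 and 20.6 CPM in those of the untreated libraries. Its log2 fold change was 1.45 ± 0.26 in edgeR (adjusted p = 2.9e-07), 0.44 with an adjusted p of 0.529 without combination replicate 2, and its adjusted p was 0.0625 against deep other cells and 0.273 in DESeq2. The whole list of inhibitory receptors had 2 of 14 genes higher and 3 lower, and 1 and 2 of 10 at like depth. With 8.18% of all genes higher and 12.5% lower, these few genes are not read as a change of the list.

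Effector genes did not rise as a group. Beside the lists that follow, 12.5% of all genes fell and 8.18% rose, and 437 and 462 of 5772 against deep other cells. Of the cytotoxicity genes 8 of 15 fell and 1 rose (3 of 13 lower and 0 higher against deep other cells, median -0.21, and 2 of 15 lower in DESeq2). Gzmb, granzyme B, was lower in 4 of 5 libraries (log2 -1.29 ± 0.23, adjusted p = 2.72e-07, and 0.105 in DESeq2), and among CD8 cells alone its pooled level was 346 CPM in cycling and 381 CPM in other cells. Prf1, perforin, had 2 UMIs in all cycling cells, a pooled ratio of 0.177 to other T cells with an exact 95% counting interval of 0.0214 to 0.641. In the Th17 list 6 of 12 fell and 1 rose (median -1.07), and 3 of 9 fell and 0 rose at like depth (median -0.53). Il22 was lower in 5 of 5 libraries (log2 -3.04 ± 0.35), whereas Il17a had 84 of its 107 UMIs in 1 cell of untreated replicate 1 and was 1304 CPM there against 605 CPM in the other T cells of that library. The log2 fold change of Il17a was -1.35 in edgeR and -0.32 at like depth (adjusted p = 0.836). In the Treg list 4 of 17 fell and 2 rose (2 and 0 of 14 at like depth), and these few genes are not read as a change of the list. Penk, an opioid peptide gene, was found in 1 of the 62 cells (log2 -4.02 ± 0.48). Foxp3, Cd4, Cd8a and Cd8b1 did not pass the threshold, with log2 fold changes of -0.25, -0.01, -0.4 and -0.36. Cd8a and Cd8b1 did pass in some other settings. Cd8a had -0.69 with doublets left out (edgeR adjusted p = 0.0221) and Cd8b1 had -0.74 in cells with at least 4 rule genes (0.0327). Among cells of a single coreceptor class the log2 fold changes of Cd8a and Cd8b1 were -0.93 and -0.85. Those classes are set by Cd8a and Cd8b1 UMIs themselves, so no test of these 2 genes is given for that setting. In the TCR complex 4 of 14 genes fell and 0 rose (1 of 14 fell at like depth). Cd3e was among the 4, with a log2 fold change of -0.47, and -0.15 against deep other cells. A Cd3e or Cd3g UMI was required of every cell compared, so Cd3e is described only and no test of it is given. In the costimulation list 6 of 16 fell and 0 rose (median -0.47), beside 12.5% of all genes lower, but at like depth 2 of 15 fell and 1 rose (median -0.15).

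The remaining large decreases were in single genes. Jchain, the joining chain of antibodies, had 0 UMIs in the 62 cells and 3706 in other T cells, which makes it at least 9.55-fold lower by a floor of 3 counts over the cycling cells. The S. chamaejasme library held 77.1% of these 3706 UMIs, and without it the bound was 2.55-fold. In other T cells it ranged from 1.23 to 163 CPM, and DESeq2 gave an adjusted p of 0.309. The TCR variable genes Trbv17 and Trav13-1 had 1 and 2 UMIs in cycling cells, with pooled ratios of 0.0263 (exact interval 0.000666 to 0.147) and 0.0815 (0.00986 to 0.295), and Trav16n had a log2 fold change of -3.02. With single libraries left out the Trav13-1 ratio lay between 0.0472 and 0.115 and the Trbv17 ratio between 0.0278 and 0.0401, except without untreated replicate 2, which held the sole cycling UMI of Trbv17. These exact intervals treat each UMI as an independent draw and leave out the spread between cells. Each V gene is used by some clones only, so its UMIs can lie in few cells. Whether the cycling cells merely belong to clones without these V genes was not tested. Itga6, an integrin, Kctd12 and Phf1 had log2 fold changes of -2.96, -2.79 and -2.65, each in 5 of 5 libraries.

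**Figure D5:**
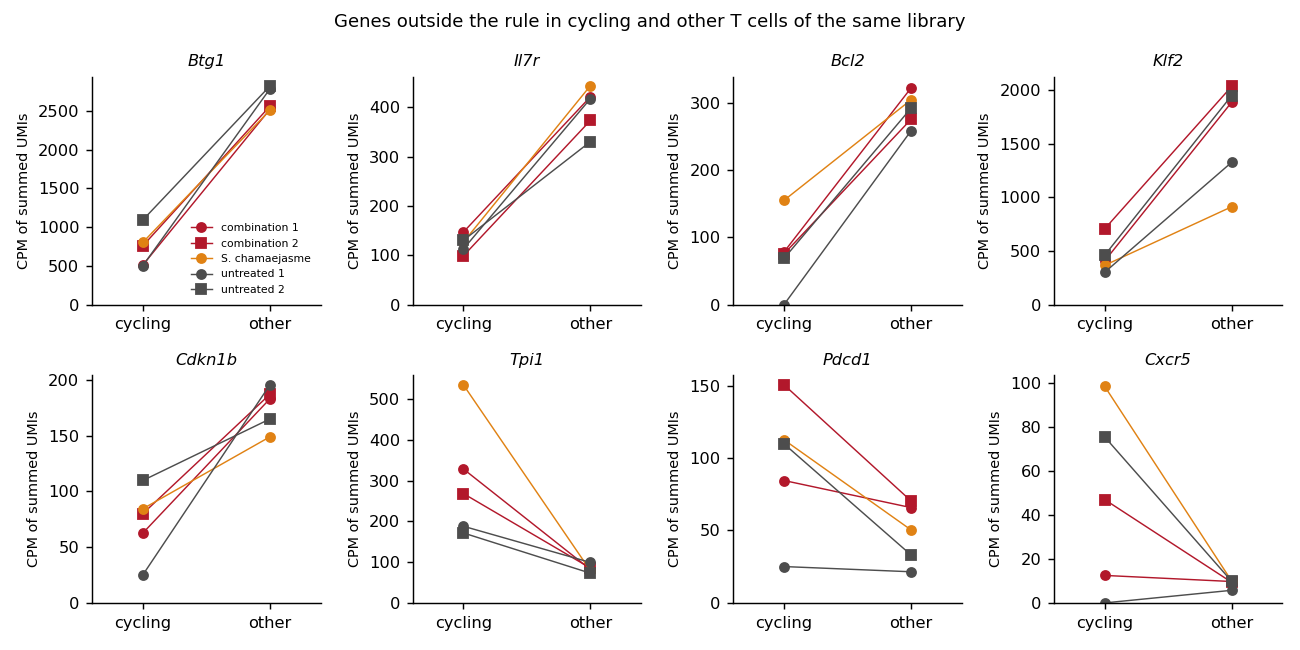
CPM of summed UMIs for 8 genes in cycling (left) and other T cells (right) of each library, joined by a line per library. Btg1, Il7r, Bcl2, Klf2 and Cdkn1b are lower and Tpi1 higher in the cycling cells of all 5 libraries without overlap, Pdcd1 is higher in all 5 with overlap, and Cxcr5 is higher in 4 of 5.

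Within the cycling cells, gene expression was compared between combination and untreated libraries over 2780 genes. No gene passed the threshold in edgeR (0.0% of genes called), 208 had an unadjusted p under 0.05, and DESeq2 called 2, Hist1h2ap and AY036118. For S. chamaejasme against untreated, which has 1 library on the treated side and assumes that it varies like the others, edgeR again called 0 (0.0%), 198 had an unadjusted p under 0.05 and DESeq2 called 1, Hist1h2ap. Both comparisons share the untreated libraries. For the combination, edgeR called 30 and 16 genes without combination replicate 1 or 2, and 52 and 79 without untreated replicate 1 or 2, so the count of 0 depends on the libraries used. The replication lists lay on the side of the phase calls, which come from the same genes, and the mitotic lists did not move together. S phase genes had 5 positive and 21 negative log2 fold changes for combination over untreated (median -0.29), MCM and fork genes 2 positive and 24 negative (median -0.44), and histones a median of -0.85, beside a median of 0.0 over all genes. Mitotic kinases and cyclins had 5 positive and 1 negative (median 0.34), G2M phase genes 17 and 10 (median 0.13) and anaphase-promoting complex genes 6 and 1 (median 0.31). Kinetochore genes had 5 and 6 (median -0.63) and spindle and cytokinesis genes 5 and 6 (median -0.1). Genes of condensin, cohesin and mitotic chromatin had 7 and 8 (median -0.16). For S. chamaejasme over untreated the medians were -0.79, -0.87 and -0.63 for the S phase, MCM and fork, and histone lists. They were 0.13, -0.23, -0.5 and 0.03 for the mitotic kinase, kinetochore, spindle and condensin lists. The G2M phase list had 0.0 and the anaphase-promoting complex list -0.45. Ccnb2, the mitotic cyclin B2, had 238 and 229 CPM in the combination libraries, 203 CPM in the S. chamaejasme library and 0 and 27 CPM in the untreated libraries (unadjusted p = 0.000117, adjusted p = 0.11 in edgeR). Cdc20, which activates the anaphase-promoting complex, had 133 and 118 CPM with the combination, 81.4 CPM with S. chamaejasme alone and 0 and 27 CPM in untreated mice (adjusted p = 0.294), and Ube2c, its ubiquitin-conjugating enzyme, had 215 and 365 CPM, 183 CPM, and 141 and 45.1 CPM in these groups (adjusted p = 0.355). The histone gene Hist1h2ap had 2339 and 1600 CPM in the combination libraries, 1404 CPM in the S. chamaejasme library and 7322 and 4399 CPM in the untreated libraries (log2 for combination over untreated -1.56 ± 0.3, adjusted p = 0.11). These 4 genes were picked after their values were seen, and none passed the threshold in edgeR. Their combination and untreated libraries did not overlap, but for genes picked by their values this is no support. The share of all genes without overlap was not counted. In the same cells the naive and memory list had 10 positive and 2 negative changes for combination over untreated (median 0.69) and a median of -1.11 for S. chamaejasme over untreated, and no gene of it passed the threshold in edgeR.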

How the data were processed

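The authors deposited raw UMI counts of 31053 features in each cell, not normalized, together with annotated TCR contigs whose read and UMI counts, chains and clonotype identifiers were used per barcode. Per the submitters' processing notes, Cell Ranger 3.1.0 and STAR were used on mm10; the annotation release is not given in the sources used here. Reference coordinates are those of GENCODE M21 (GRCm38).

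T cells were kept with at least 300 genes, at most 10% mitochondrial UMIs and at least 1 UMI of Cd3e or Cd3g. Doublets were left in for the main values, and leaving them out (the highest Scrublet scores at 0.8% per 1000 cells, or at least 2 TRB chains) was an alternative, since Scrublet's own threshold marked 17 cells in all and did not work. Of the 62 cycling cells this removed 4. Phases were scored in scanpy 1.11.5 on log-normalized counts (10000 per cell). The labels give no date or batch. The number of barcode sequences seen in more than 1 library was 251, with 0 of the cycling ones among them. Libraries are numbered in accession order, which pairs nothing. Batches that coincide with treatment cannot be told apart from it.

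UMIs were summed per library over cycling and over other T cells. The fit used edgeR 4.0.16 under R 4.3.3 (quasi-likelihood F test after filterByExpr and TMM, two-sided, Benjamini-Hochberg threshold 0.05). SE was taken as |log2 change| / √F. CPM use TMM-scaled library sizes, and levels pooled over cells of a class use plain totals. Alternatives were DESeq2 1.42.0, RLE scaling, no filter, no library block and each library left out. In simulated counts on 10522 genes the cycling contrast recovered 18% of 2-fold and 50% of 4-fold changes, with 3 false calls. On 2780 genes the combination contrast recovered 6% of 2-fold and 47% of 4-fold changes, with 0 false calls. Both simulations gave all genes the same spread between sums, with no effect of library or of single cells. Their rates hold for such counts and do not measure the false calls in these data. Shares were compared by exact permutation over libraries, in Python 3.11.15 with scipy 1.17.1, and intervals are 95% Wilson.

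Named genes were the 10 largest changes in each direction at a mean of at least 20 CPM with 1 direction in every library, outside the rule genes and cell cycle lists, plus a panel and up to 4 genes of smallest p per list. The members and all lists were chosen with earlier results of these data known.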

Additional observations from a re-analysis of the deposited data

How the results depend on the processing

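The shares of T cells in cycle moved with the setting. The combination minus untreated difference of 0.0528 points was -0.0461 after thinning to 2000 UMIs and -4.22 among T cells of like depth (exact permutation p = 0.333 in both). It was 0.334 with at least 2 of the 6 genes (1.43% and 1.74% with the combination against 1.17% and 1.33% in untreated mice, exact permutation p = 0.333) and lay between 0.00421 and 0.101 with single libraries left out. S. chamaejasme minus untreated was -0.206 points, and -0.341 with at least 2 of the 6 genes, -0.122 after thinning, -4.58 among T cells of like depth and -0.254 to -0.157 with single libraries left out. The CD8 minus CD4 conventional gap of -0.127 points turned to 0.0877 after thinning, was -0.902 with at least 2 of the 6 genes and -0.16 with doublets left out (negative in 5 of 5 libraries in both, exact permutation p = 0.0625), and lay between -0.165 and -0.0976 with libraries left out. The Treg minus CD4 conventional gap kept a positive mean under every alternative run, at 0.271 to 0.501 points with libraries left out. After thinning the mean of 0.176 points rested on 1 cycling Treg of untreated replicate 2, where the gap was 0.994. In each other library that gap was 0 or -0.112 points. The S phase difference stayed negative, at -24.6 points after thinning and -45.7 to -39.3 with libraries left out. It was -29.8 when S meant more S than G2M list UMIs, a setting in which untreated replicate 2 lay near the combination. The shares there were 25% and 29.4% with the combination and 83.3% and 30.8% in the untreated libraries. The expanded clone difference turned to -0.904 points when expanded meant at least 3 cells. By class it was 21.6 among CD4 conventional cells, 1.11 among Treg and -22.4 among CD8 cells, where 0 expanded cycling cells fix its sign, and it lay between 3.13 and 7.11 with libraries left out.

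Cycling against other T cells called 2179 genes, 1381 with DESeq2, 899 against other T cells of like depth and 1406 to 1988 with single libraries left out; of these, 1336, 866 and, without combination replicate 1, 1331 were among the 2179. Of 66 named genes, 846 of 911 values kept direction and side of the threshold. Cd4, at -0.01, lay between -0.28 and 0.14 with libraries left out (0.09 and 0.14 without the S. chamaejasme library or untreated replicate 1) and was 0.03 with DESeq2, 0.1 with RLE, 0.2 with no library block, 0.19 at like depth, 0.25 in libraries with at least 10 cycling cells and 0.01 with at least 4 rule genes. With libraries left out, Cd8a lay between -0.73 and 0.03 and Cd8b1 between -0.69 and 0.09, both positive without combination replicate 2 only.

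Within cycling cells, combination against untreated called 0 genes, but 2 with DESeq2, 72 with no filter, 11 with doublets left out, 23 with at least 4 rule genes and 0 to 79 with single libraries left out. Among cycling CD4 conventional cells alone, over 1092 genes, it called 0. S. chamaejasme against untreated called 0, but 1 with DESeq2, 20 with no filter, 1 (Zfp36) in CD4 conventional cells, 5 with at least 4 rule genes and 18 to 45 with libraries left out. Where a library left out leaves 1 in an arm, that one is assumed to vary like the rest. The cause of these changes was not tested. The like depth, 4 gene, 10 cell and single class settings were chosen after seeing the data. Fits of cycling against other cells within a lineage, and of the difference of that contrast between CD8 and CD4 conventional cells, were not run because no class had 10 cycling cells in any library. Sums and shares of the same library were treated as pairs throughout. Between treatments no paired analysis was possible because the labels give no replicate numbers. The 6 to 20 cycling cells per library limit all of these values.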

Other observations

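Further gene lists were measured in cycling against other T cells with edgeR. In the DNA damage response list 9 of 20 genes rose and 4 fell, with a median log2 fold change of 1.0 that was 0.19 against other T cells of like depth. The list shares genes with the cell cycle lists. In the type I interferon list 5 of 16 genes fell and 1 rose, and in the Th1 list 4 of 9 fell and 0 rose, against 2 of 9 and 0 of 6 lower at like depth. Over all genes 12.5% fell and 8.18% rose, and at like depth 437 and 462 of 5772. Il2rb, the beta chain of the IL-2 receptor, and Ctla4, an inhibitory receptor, did not pass the threshold in cycling against other T cells. Their log2 fold changes were 0.18 and 0.33 (edgeR adjusted p = 0.538 and 0.0802), and 0.04 and 0.28 at like depth (0.921 and 0.252). Outside the T cell filter, 5 cells met the rule on the 6 genes without a Cd3e or Cd3g UMI, 1 in each combination library, 1 in the S. chamaejasme library and 2 in untreated replicate 2.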
